A study of Homo sapiens with 15 samples.

Results

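The genes described here encode the proteins of the cytosolic ribosome, together with their close relatives. They were every protein-coding gene of the array's annotation whose symbol begins RPL or RPS followed by a digit, or is RPLP0, RPLP1, RPLP2 or RPSA, without pseudogenes, the RPS6K kinases and the RPS4Y genes. The rule found 53 of the 14812 genes analysed. Of these, 43 were standard ribosomal proteins, 26 of the large subunit and 17 of the small subunit. A further 7 were paralogs (RPL3L, RPL10L, RPL22L1, RPL26L1, RPL36AL, RPL39L and RPS27L), and 3 matched the symbol rule but are not standard subunits: RPL7L1, the RPS19-binding protein RPS19BP1 and the readthrough gene RPL36A-HNRNPH2. RPLP0, RPLP1, RPLP2 and RPSA were not analysed here, nor were other protein-coding RPL and RPS genes that are not among the 53.

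The samples came from MV4-11, an established line of human acute myeloid leukemia that carries a KMT2A-AFF1 fusion, exposed for 24 h to OTX015 at 300 nM, DW71177 at 300 nM, DW71374 at 300 nM, RVX208 at 5 uM or the vehicle DMSO. Each of the 5 groups had 3 wells and 3 whole-transcript arrays, 15 in all. The series presents the compounds as inhibitors of BET proteins, readers of acetylated lysine that support transcription. OTX015 (birabresib) binds both bromodomains of these proteins and RVX208 (apabetalone) prefers the second, whereas DW71177 and DW71374 are known here by code name alone. Whether the wells were separate cultures is not stated in the labels, and the p-values therefore reflect how far these arrays differ among themselves, and that spread may be technical.

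A ribosome joins a small subunit, which reads the messenger RNA, to a large subunit, which makes the peptide bond, and each contains 1 copy of most of its proteins. Cells make these proteins in matched amounts, and surplus ones are degraded. Most of their mRNAs begin with a 5′ terminal oligopyrimidine tract (TOP), a C followed by more pyrimidines, through which mTOR signalling controls translation. Part of their output is therefore set after transcription, which an array of RNA levels does not measure. MYC is a known activator of ribosome production, and BET inhibitors are known to lower MYC in many leukemia lines.

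The array gave log2 signals, on which 1 unit is a 2-fold change. Array medians lay between 3.72 and 3.79 and replicate arrays correlated at 0.992 to 0.995. How the arrays were normalized is not given, and a change shared by all genes may have been removed before deposit. Each difference given is therefore read against the rest of the array. In a bulk sample, fewer cells of a type and less RNA per cell cannot be told apart. Of 11 myeloid marker genes 7 were measured, and 6 had a mean of 5 or more, among them LYZ (10.5), CD68 (10.2), FLT3 (9.80) and SPI1 (7.60). MPO had 4.33. Markers of other lineages were also listed: 1 of 6 lymphoid genes was measured (NKG7, 6.91), 1 of 6 erythroid and megakaryocytic genes (PF4, 5.72) and 3 of 7 epithelial and stromal genes (KRT18 7.73, KRT8 5.24, EPCAM 2.72). As a check of the treatment, MYC was lower than in DMSO by a log2 difference of -1.42 with OTX015, -1.16 with DW71177 and -0.32 with RVX208, each called by limma, and was at -0.04 with DW71374, which was not called.

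The mean signals of the 53 genes had a median of 6.50, with a range of 2.44 to 12.3, against a median of 4.74 over all genes. Of the 53, 8 were among the 148 genes in the top 1% of signals. A mean of 7 or more was reached by 22, 23 lay between 5 and 7, and 8 lay under 5. Signals of different genes depend on their probes, so the order of signals is not an order of abundance. Near background a probe understates a change, and folds of genes with a mean under 5 in a group are at best lower bounds.

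The sequence around the start of transcription shows what these genes share apart from their names. The 30-base windows below run from 15 bases before the start annotated by RefSeq to 15 bases from it (GRCh38.p14, gene strand, 5′ to 3′), and capitals mark the unbroken run of pyrimidines that begins with a C at that start. The first 6 genes fell with OTX015, as described below, and the last 4 were not called.
RPL29, chr3:51995881-51995910, minus strand: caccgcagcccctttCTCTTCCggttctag
RPL22L1, chr3:170870181-170870210, minus strand: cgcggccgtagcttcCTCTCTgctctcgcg
RPL35A, chr3:197950175-197950204, plus strand: cggcggggcctcgtcCTTCTCTTaccgcca
RPS7, chr2:3575245-3575274, plus strand: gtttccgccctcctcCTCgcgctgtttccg
RPS26, chr12:56041903-56041932, plus strand: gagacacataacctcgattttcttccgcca
RPL9, chr4:39458908-39458937, minus strand: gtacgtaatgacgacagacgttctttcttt
RPL39, chrX:119791616-119791645, minus strand: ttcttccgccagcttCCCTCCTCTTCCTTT
RPS27, chr1:153990747-153990776, plus strand: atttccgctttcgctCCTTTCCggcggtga
RPL22, chr1:6199581-6199610, minus strand: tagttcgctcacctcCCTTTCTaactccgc
RPS28, chr19:8321481-8321510, plus strand: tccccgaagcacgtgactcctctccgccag

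Genes with several annotated starts were counted if any of them matched, here and for the motifs below. A C at an annotated start followed by at least 4 bases that were each C or T was present in 30 of the 47 genes with a RefSeq promoter (63.8%). It was present in 1404 of 27305 genes of all kinds (5.14%) and in 988 of 15843 protein-coding genes (6.24%). Among standard ribosomal protein genes the tract was present in 28 of 40 (70%). By the call with OTX015, these were 10 of the 17 called lower (58.8%) and 18 of the 23 not called (78.3%). As the windows show, genes with and without the tract stood on both sides of the call. RPS7 has a run of 3 pyrimidines, too short for the rule, and RPS26, RPL9 and RPS28 have none at the annotated base, which depends on where RefSeq places the start. For RPL30, RPL39L, RPL3L, RPL8, RPS15A and RPS19BP1 no RefSeq promoter was available here, and they are not among the 47.

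The 300 bases from 250 before to 50 after the start were also searched for CCGGAAG on either strand, a motif of ETS-family factors. It was present in 13 of the 47 genes (27.7%), against 12.2% of all genes with a RefSeq promoter and 16.5% of the protein-coding ones. On the opposite strand it reads CTTCCGG and can overlap the pyrimidine run, as at RPL29. It was in 7 of the 17 standard genes called lower with OTX015 and in 4 of the 23 not called. CACGTG, the E-box bound by MYC and other factors, was in 4 of the 47 (8.51%), in 8.77% of all genes and in 10.9% of protein-coding genes. TATAAA was in 4 of the 47 (8.51%), in 14% of all genes and in 12.4% of protein-coding genes. These matches describe the sequence and were not tested against the differences in signal.

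The first question was how the family responded to OTX015, which binds both BET bromodomains. Against DMSO, 20 of the 53 genes were lower and 0 were higher at an adjusted p under 0.05 (37.7% lower), against 14.5% of all genes lower and 11.2% higher. The family's median difference was -0.14, a 1.10-fold fall, where the median over all genes was -0.00, and 46 of the 53 lay below 0, as did 50.8% of all genes. Folds of the 20 called genes ran from 1.12 to 1.83 lower with a median of 1.26. The fall was thus shallow in most members and larger in a few: 6 fell by more than 0.5 on the log2 scale and 0 fell 2-fold. For all 33 genes not called, the 95% interval of the difference lay within 0.5 log2 units either way. At an unadjusted p under 0.05 limma gave 27 lower and 0 higher, against 18.2% of all genes lower and 15.2% higher. All 3 OTX015 arrays lay below all 3 DMSO arrays for 32 of the 53 genes (19.5% of all genes did so), and above them for 2 (16.7% of all genes).

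**Figure D1:**
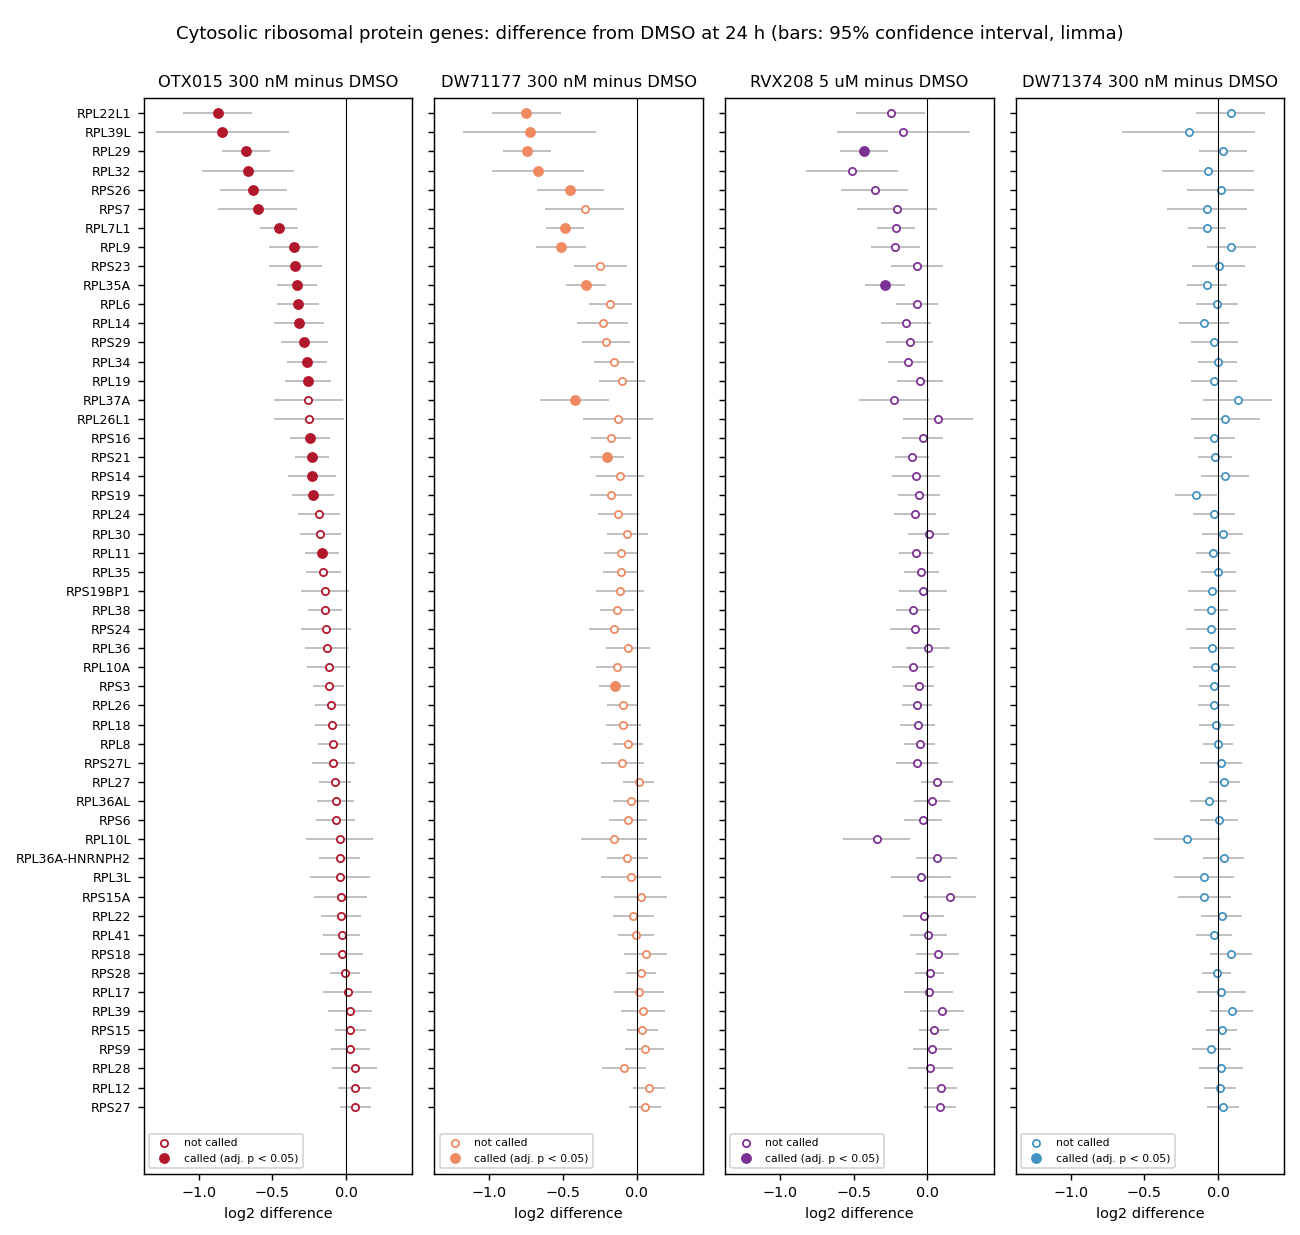
Log2 difference from DMSO for each of the 53 genes (rows, ordered by the OTX015 difference) with OTX015, DW71177, RVX208 and DW71374, where points are differences of group means (3 arrays each), bars are 95% confidence intervals of the limma fit, and filled points passed an adjusted p under 0.05. Filled points number 20 with OTX015, 11 with DW71177, 2 with RVX208 and 0 with DW71374, and all lie left of 0.

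RPL29, a basic protein of the large subunit also known as a heparin-binding protein, had signals of 6.80, 6.57 and 6.65 in the OTX015 arrays, against 7.29, 7.43 and 7.34 in the DMSO arrays. The groups were far apart, and RPL29 had the smallest p of the family, with a log2 difference of -0.68 ± 0.076 (SE; 1.60-fold lower, limma adjusted p = 1.2e-05). RPL32, another large subunit protein, had 4.59, 4.62 and 4.73 with OTX015, against 5.40, 5.24 and 5.29 with DMSO. Each OTX015 array again lay below each DMSO array, and the difference was -0.67 ± 0.145 (limma adjusted p = 0.0032), at best a lower bound at this signal.

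Beyond RPL29 and RPL32, the large subunit genes called lower with OTX015 were RPL9 (-0.36), RPL35A (-0.34), RPL6 (-0.33), RPL14 (-0.32), RPL34 (-0.27), RPL19 (-0.26) and RPL11 (-0.16). These made 9 of 26, with a median of -0.15 over the 26. RPL35A is a gene mutated in Diamond-Blackfan anemia, an inherited failure of red cell production, and its signals were 6.71, 6.61 and 6.82 with OTX015, against 7.05, 7.03 and 7.07 with DMSO. RPL9 had 6.84, 7.03 and 6.90 with OTX015, against 7.30, 7.28 and 7.26 with DMSO. For both genes the lowest DMSO array lay above the highest OTX015 array. RPL11, which joins the large subunit in a complex with RPL5 and the 5S RNA, had 10.39, 10.42 and 10.40 with OTX015, against 10.51, 10.56 and 10.64 with DMSO. Its groups did not overlap, but its small difference was called narrowly (limma adjusted p = 0.04).

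In the small subunit 8 of 17 genes were called lower with OTX015: RPS26 (-0.63), RPS7 (-0.60), RPS23 (-0.34), RPS29 (-0.28), RPS16 (-0.24), RPS21 (-0.23), RPS14 (-0.23) and RPS19 (-0.22). RPS26, which lies near the exit of the mRNA channel, had 5.19, 5.22 and 5.12 with OTX015, against 5.78, 5.83 and 5.80 with DMSO. Replicates of RPS26 were tight in both groups (SD 0.054 with OTX015 and 0.025 with DMSO), and the difference was -0.63 ± 0.106 (limma adjusted p = 0.00043). RPS7, a small subunit protein also mutated in Diamond-Blackfan anemia, had 4.68, 4.40 and 4.16 with OTX015, against 5.09, 4.91 and 5.04 with DMSO. The OTX015 arrays of RPS7 were spread widely (SD 0.26), all below DMSO, and the difference was -0.60 ± 0.125 (limma adjusted p = 0.0023).

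RPS23, a protein of the decoding centre, had 7.58, 7.71 and 7.88 with OTX015, against 8.15, 8.04 and 8.02 with DMSO. RPS19, the gene most often mutated in Diamond-Blackfan anemia, had 10.92, 11.17 and 11.01 with OTX015, against 11.27, 11.26 and 11.23 with DMSO. In both the groups were apart by less than the range within OTX015. RPS14, whose loss of 1 copy contributes to the 5q- syndrome, differed by -0.23 ± 0.076 (limma adjusted p = 0.039).

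The smallest of these differences were the least secure. Without OTX015 array 1, RPL11, RPS14 and RPS19 had limma adjusted p-values of 0.10, 0.10 and 0.11. Without OTX015 array 3 the calls of RPL11, RPL19, RPS14 and RPS19 were lost, and without OTX015 array 2 those of RPL11 (-0.17) and RPS29 (-0.22, limma adjusted p = 0.053). Leaving out a DMSO array also ended calls: RPS14 and RPS19 without array 1, RPL11, RPS14 and RPS19 without array 2, and RPL11, RPL19 and RPS14 without array 3. The differences of these 5 genes stayed below 0 in each case. The other 15 calls were kept whichever of these 6 arrays was left out.

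**Figure D2:**
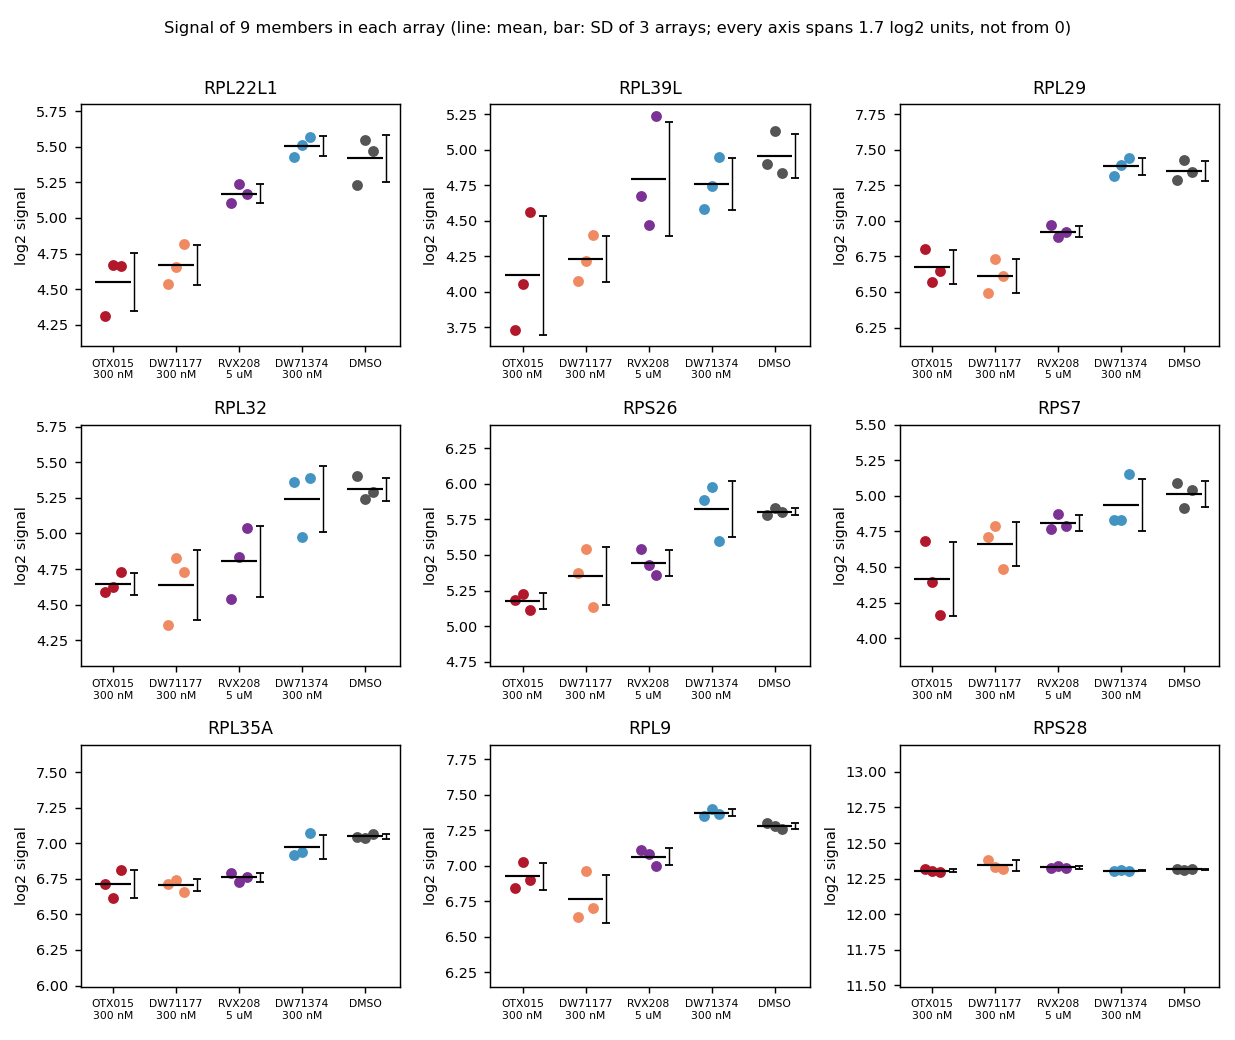
Log2 signal of 9 of the genes in each of the 15 arrays (points), with the mean (line) and SD (bar) of the 3 arrays of a group; every axis spans 1.7 log2 units and does not start at 0. In the 8 genes other than RPS28 the OTX015 arrays lie below the DMSO arrays, while RPS28 stays between 12.30 and 12.38 in all 15.

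The 3 brightest members were not called with OTX015. RPS28, a small subunit protein, had 12.32, 12.31 and 12.30 with OTX015, against 12.32, 12.31 and 12.32 with DMSO. RPS15, in the head of the small subunit, had 12.05, 12.06 and 12.05 with OTX015, against 11.99, 12.06 and 12.03 with DMSO. RPL12, at the base of the stalk that recruits elongation factors, had 11.85, 11.90 and 11.84 with OTX015, against 11.80, 11.80 and 11.81 with DMSO. RPS28 and RPS15 overlapped between groups, and the arrays of RPL12 were all slightly higher with OTX015 (0.06, limma adjusted p = 0.51). The other gene with every OTX015 array above DMSO was RPS27, a small subunit protein, at 0.06 (limma adjusted p = 0.44). After quantile normalization of the deposited values these were called higher, RPL12 at 0.16 (limma adjusted p = 0.035) and RPS27 at 0.17 (limma adjusted p = 0.021), so whether they are called depends on this setting. RPL17, a large subunit protein, was among the 3 least changed members with OTX015. It had 8.12, 8.29 and 8.23 with OTX015, against 8.15, 8.28 and 8.18 with DMSO (0.01, not called).

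Of the 11 members with a mean of 9 or more, 3 were called lower (RPS19, RPL11 and RPL19), and their differences ranged from -0.26 to 0.06. Their 95% intervals, like those of all members not called, exclude a change of 0.5 log2 units in array signal but not smaller ones. They do not bound the change in RNA where a probe is near background or near the upper end of the scale. Over the 53 genes the mean signal and the OTX015 difference had a Spearman correlation of 0.32 and a Pearson correlation of 0.37, across genes that share the same 6 arrays. Bright probes can be close to the upper end of the scale, where a change is compressed, and the part of this in the result was not tested.

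By signal level, 9 of 22 members with a mean of 7 or more were called lower with OTX015 (40.9%), where 33.9% of all genes of that level were. Between 5 and 7 it was 8 of 23 members (34.8%) against 24% of all genes. Under 5 it was 3 of 8 members (37.5%), RPL32, RPL39L and RPS7, against 3.50% of all genes. At a mean of 7 or more the members' share was thus close to that of equally bright genes, and between 5 and 7 it was higher. Under 5 no excess can be read, because the level is a mean that includes the treated arrays. RPL32 had a mean of 5.31 with DMSO and 4.65 with OTX015, and RPS7 had 5.01 and 4.41. Their falls thus helped to place them under 5, while RPL39L was under 5 with DMSO as well (4.96). In each level members were called in the downward direction alone.

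**Figure D3:**
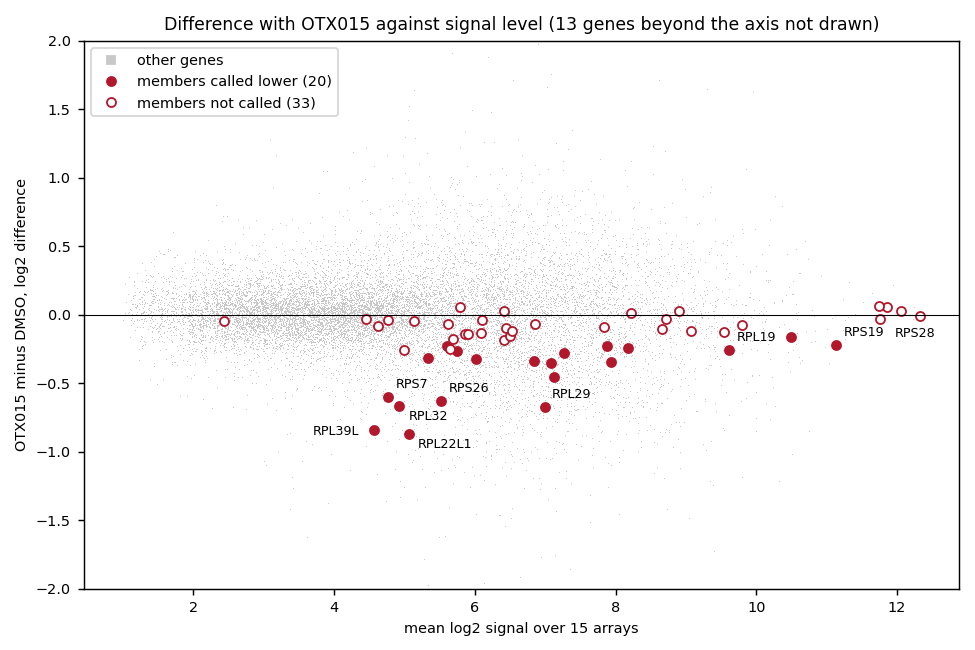
OTX015 minus DMSO log2 difference (vertical axis) against the mean log2 signal over 15 arrays (horizontal axis) for all genes (grey points; 13 beyond 2 log2 units are not drawn) and the 53 ribosomal protein genes (filled, 20 called lower; open, 33 not called). The 6 falls beyond 0.5 log2 units lie at mean signals of 4.57 to 6.99, while genes above 9 stay between -0.26 and 0.06.

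The 2 largest falls with OTX015 were those of the paralogs RPL22L1 and RPL39L, while over the 7 paralogs 2 were called and the median was -0.09. RPL22L1, a relative of RPL22 known to be raised where RPL22 is lost, had 4.31, 4.67 and 4.66 with OTX015, against 5.23, 5.55 and 5.47 with DMSO. The groups were well apart, with a difference of -0.87 ± 0.108 (limma adjusted p = 3.1e-05). RPL22 itself had 4.39, 4.35 and 4.55 with OTX015, against 4.45, 4.45 and 4.49 with DMSO, and its difference of -0.03 was not called (95% interval -0.17 to 0.10). The signal of RPL22 was low, so a change in it would be understated.

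RPL39L, best known from male germ cells, is a relative of RPL39, which lines the peptide exit tunnel. It had 3.73, 4.05 and 4.56 with OTX015, against 4.90, 5.13 and 4.84 with DMSO, the widest spread among the genes with large falls (SD 0.42 with OTX015). The difference was -0.84 ± 0.209 (limma adjusted p = 0.0077). RPL39 had 8.75, 8.94 and 8.94 with OTX015, against 8.81, 8.90 and 8.84 with DMSO, which overlapped (0.03, 95% interval -0.12 to 0.17). A second, dimmer RPL39 feature was at -0.18. The difference between a paralog's change and that of its counterpart was not tested.

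The other paralogs were not called with OTX015. RPL26L1 had 5.13, 5.57 and 5.63 with OTX015, against 5.71, 5.71 and 5.67 with DMSO, at -0.25 (limma adjusted p = 0.12), where RPL26 was at -0.10. RPS27L was at -0.09, and RPS27 at 0.06. RPL36AL was at -0.07, RPL3L, known from striated muscle, at -0.04 and RPL10L, known from testis, at -0.04, the last with the lowest signal of the family. Near-identical copies can share probe sequence, and the signals of each pair cannot be taken as fully separate.

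Of the 3 genes that are not standard subunits, RPL7L1 fell. It is a relative of RPL7 whose yeast counterpart acts in the assembly of the large subunit. Its signals were 6.91, 6.92 and 6.93 with OTX015, against 7.36, 7.32 and 7.43 with DMSO. Replicates were tight in both groups (SD 0.012 with OTX015 and 0.056 with DMSO), and the difference was -0.45 ± 0.060 (limma adjusted p = 5.7e-05). RPS19BP1 (-0.14) and RPL36A-HNRNPH2 (-0.04) were not called.

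**Figure D4:**
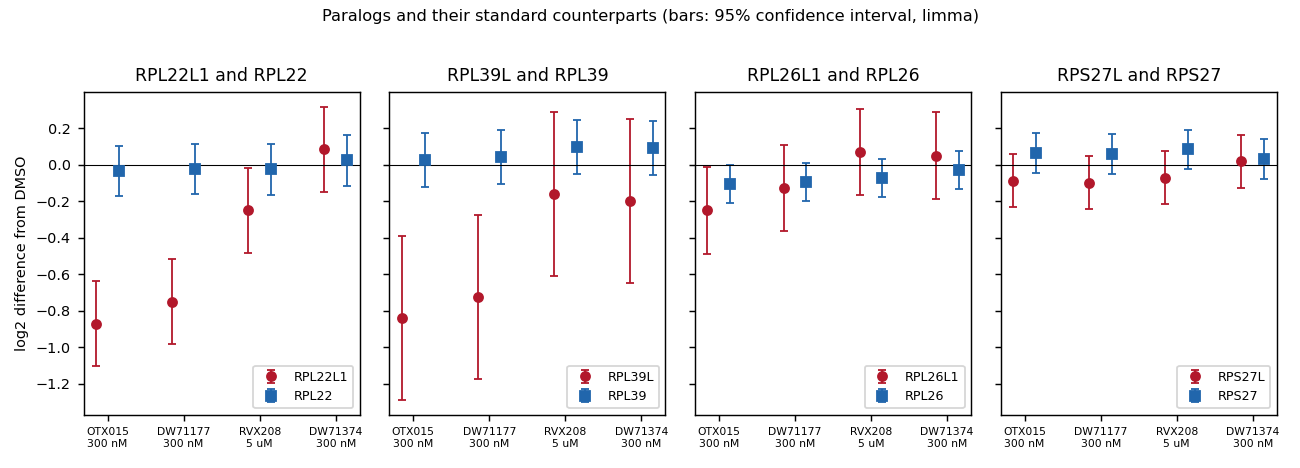
Log2 difference from DMSO of 4 paralogs (circles) and their standard counterparts (squares) with each compound, with 95% confidence intervals of the limma fit (3 arrays a group). RPL22L1 and RPL39L lie between -0.87 and -0.73 with OTX015 and DW71177 and their counterparts between -0.03 and 0.04, while the other pairs lie between -0.25 and 0.08 throughout.

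Where the array carried several features for a gene, they did not always agree. RPL19 differed by -0.26 on its brighter feature and by -0.02 on its second with OTX015. Averaging the 2 features gave -0.14, which was not called (limma adjusted p = 0.15). The 5 features of RPL41, which encodes a very short large subunit protein, lay between -0.07 and 0.02, and the 2 of RPS18 at -0.03 and -0.04. Of 25 ribosomal protein pseudogenes measured, 6 belonged to genes among the 53. With OTX015, RPL29P2 was at -0.11 where RPL29 was at -0.68, RPL32P3 at 0.09 where RPL32 was at -0.67, RPS26P11 at -0.16 where RPS26 was at -0.63, and RPS7P5 at -0.11 where RPS7 was at -0.60. RPL19P12 was at 0.05, and RPS15AP10 at 0.51 where RPS15A was at -0.04. Both features were dim, with means of 2.59 and 3.67. For the first 4 pseudogenes the difference was smaller than that of the gene they derive from, which was not tested. RPS26P11 (mean 4.02) and RPS7P5 (3.35) were dim as well, so a change in them would be understated. Probes shared between near-identical copies also make these values uncertain.

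With DW71177 against DMSO, 11 of the 53 genes were lower and 0 higher (20.8% lower), against 9.88% of all genes lower and 9.95% higher. The median difference was -0.11, and at an unadjusted p under 0.05 limma gave 20 lower and 0 higher, against 14.6% of all genes lower and 14.9% higher. The 11 were RPL22L1 (-0.75), RPL29 (-0.74), RPL39L (-0.73), RPL32 (-0.67), RPL9 (-0.51), RPL7L1 (-0.49), RPS26 (-0.45), RPL37A (-0.42), RPL35A (-0.34), RPS21 (-0.20) and RPS3 (-0.15), falls of 1.11- to 1.68-fold. The share of all genes is not matched to signal level. By level, 3 of 22 members with a mean of 7 or more were called lower with DW71177 (13.6%). Between 5 and 7 it was 5 of 23 (21.7%), and under 5 it was 3 of 8 (37.5%). Shares of all genes at these 3 levels are not set beside these counts. No excess at any level can therefore be read from them. When only genes of mean 5 or more were tested, 16 of 45 members were lower, against 1610 of 6736 genes. All comparisons with DMSO share the same 3 DMSO arrays, so they are not independent of each other.

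RPL29 had 6.49, 6.73 and 6.61 in the DW71177 arrays, against 7.29, 7.43 and 7.34 with DMSO, a difference of -0.74 ± 0.076 (limma adjusted p = 1.1e-05). RPL22L1 had 4.54, 4.65 and 4.82 with DW71177, against 5.23, 5.55 and 5.47 with DMSO (limma adjusted p = 0.00018). In both genes the DW71177 arrays lay in a range that overlapped the OTX015 arrays. RPL7L1 had 6.81, 6.96 and 6.88 with DW71177, against 7.36, 7.32 and 7.43 with DMSO (limma adjusted p = 5.25e-05). RPL9 had 6.64, 6.96 and 6.70 with DW71177, against 7.30, 7.28 and 7.26 with DMSO (limma adjusted p = 0.0003). RPL9 fell 1.43-fold, with 1 array higher than the other two.

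RPL37A, a large subunit protein, had 4.81, 4.94 and 4.42 with DW71177, against 5.20, 5.16 and 5.08 with DMSO, and the lowest array set much of the difference of -0.42 ± 0.109 (limma adjusted p = 0.013). With OTX015 it differed by -0.26 and was not called (limma adjusted p = 0.11). RPS3, at the entry of the mRNA channel, had 6.37, 6.49 and 6.46 with DW71177, against 6.60, 6.60 and 6.57 with DMSO. It was called narrowly (limma adjusted p = 0.046), and leaving out any DMSO array, DW71177 array 1 or DW71177 array 3 ended the call, at differences of -0.16 to -0.12. The call of RPS21 ended without DMSO array 2 or DW71177 array 3. That of RPL39L ended without DMSO array 1 or 2 or DW71177 array 1 or 2, at differences of -0.76 to -0.64.

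RPS7 was not called with DW71177, with 4.71, 4.79 and 4.48 in those arrays and a difference of -0.35 from DMSO (limma adjusted p = 0.064). RPS28 had 12.38, 12.33 and 12.32 with DW71177, against 12.32, 12.31 and 12.32 with DMSO, and was at 0.03. RPS19, also bright, had 11.04, 11.08 and 11.12 with DW71177, against 11.27, 11.26 and 11.23 with DMSO. Its arrays did not overlap DMSO, yet at -0.18 it was not called (limma adjusted p = 0.083), whereas quantile normalization (limma adjusted p = 0.035), testing only genes of mean 5 or more (0.025) and a trended and robust variance (0.0089) each called it lower. RPL12, at 0.08, was called higher with the trended and robust variance (limma adjusted p = 0.037). For 41 of the 42 genes not called, the 95% interval lay within 0.5 log2 units either way, and RPS7 was the exception.

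With RVX208 at 5 uM against DMSO, 2 of the 53 genes were lower and 0 higher (3.77% lower), close to the 3.11% of all genes lower and the 3.41% higher. The median difference was -0.06, and 36 of the 53 lay below 0, as did 52.8% of all genes. At an unadjusted p under 0.05 limma gave 8 lower and 0 higher, against 10.1% of all genes lower and 9.78% higher. RPL29 had 6.97, 6.89 and 6.92 with RVX208, against 7.29, 7.43 and 7.34 with DMSO, a difference of -0.43 ± 0.076 (1.35-fold lower, limma adjusted p = 0.0037). RPL35A had 6.79, 6.73 and 6.77 with RVX208, against 7.05, 7.03 and 7.07 with DMSO, at -0.29 ± 0.063 (limma adjusted p = 0.015). Both sets of arrays were tight and apart. The call of RPL35A ended without DMSO array 3 (limma adjusted p = 0.057) or RVX208 array 2 (limma adjusted p = 0.06), and that of RPL29 was kept.

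RPL32 had 4.54, 4.84 and 5.04 with RVX208, against 5.40, 5.24 and 5.29 with DMSO, and its difference of -0.51 ± 0.145 just missed the threshold (limma adjusted p = 0.054). It passed without RVX208 array 3 (-0.63, limma adjusted p = 0.037), and also after centring on bright genes, with a trended and robust variance and with array weights. RPL7L1, at -0.21, missed the threshold as narrowly (limma adjusted p = 0.052). It was called lower in those 3 settings, after quantile normalization and among genes of mean 5 or more. RPL22L1 had 5.10, 5.24 and 5.17 with RVX208, against 5.23, 5.55 and 5.47 with DMSO, which just overlapped. RPS26 had 5.55, 5.43 and 5.36 with RVX208, all below the DMSO arrays, and neither gene was called. Some alternative settings did call RPS26 lower (-0.36), among them testing only genes of mean 5 or more (limma adjusted p = 0.018) and array weights (limma adjusted p = 0.044). Because RVX208 was given at a higher dose than the other compounds, its values are set beside theirs without a comparison.

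DW71374 at 300 nM gave no detectable difference from DMSO in the family. With limma, 0 of the 53 genes were called against DMSO, as were 0% of all genes lower or higher, and 1 of the 53 was lower and 0 higher at an unadjusted p under 0.05, against 2.79% of all genes lower and 1.84% higher. That gene was RPS19, at -0.15 (unadjusted p = 0.041, limma adjusted p = 0.99), with 11.09, 11.07 and 11.15 with DW71374, against 11.27, 11.26 and 11.23 with DMSO. The median difference was -0.01, and for 52 of the 53 genes the 95% interval lay within 0.5 log2 units either way, so falls of the size of RPL29 with OTX015 would have lain outside it. RPL29 itself had 7.32, 7.40 and 7.44 with DW71374, and RPL22L1 had 5.43, 5.51 and 5.57, each overlapping DMSO.

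The family's difference can also be given array by array. The median over the 53 genes of the difference from the DMSO mean was -0.151, -0.131 and -0.154 in the OTX015 arrays, -0.127, -0.086 and -0.121 in the DW71177 arrays and -0.054, -0.071 and -0.034 in the RVX208 arrays. In the DW71374 arrays it was 0.012, -0.017 and -0.020, and in the DMSO arrays -0.005, 0.007 and -0.001. The OTX015, DW71177 and RVX208 arrays all lay below the DMSO arrays, and the DW71374 arrays lay on both sides of them. Each DMSO array was set against a mean that includes it, which narrows the DMSO range. A place outside that range is therefore not a test. OTX015 and DW71177 had no settled order: after quantile normalization the family's median against DMSO was -0.114 with OTX015 and -0.117 with DW71177, and after centring on bright genes -0.102 with OTX015 and -0.104 with DW71177.

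Among the 3 compounds given at 300 nM, all 3 pairs were compared. DW71177 against OTX015 gave 0 of the 53 genes lower and 0 higher, where 0.182% of all genes were lower and 1.07% higher, with a median difference of 0.03. At an unadjusted p under 0.05 limma gave 0 lower and 2 higher, against 4.25% of all genes lower and 9.47% higher. The 2 were RPL6 at 0.15 (limma adjusted p = 0.35) and RPL19 at 0.16 (limma adjusted p = 0.35). For 51 of the 53 the 95% interval of the difference lay within 0.5 log2 units either way. A difference between these compounds in this family was not detected, which does not show that they act alike.

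DW71177 against DW71374 gave 10 of the 53 genes lower and 0 higher, against 9.51% of all genes lower and 9.98% higher. The largest differences were RPL22L1 at -0.84 ± 0.108 (limma adjusted p = 7.8e-05), RPL29 at -0.77 ± 0.076, RPL32 at -0.60, RPL9 at -0.60 and RPL37A at -0.55. RPL22L1 had 4.54, 4.65 and 4.82 with DW71177, against 5.43, 5.51 and 5.57 with DW71374, so the 2 coded compounds were far apart at the same dose. OTX015 against DW71374 gave 19 of the 53 lower and 0 higher, against 14% of all genes lower and 11.1% higher, led by RPL22L1 at -0.96 ± 0.108 (limma adjusted p = 1.4e-05) and RPL29 at -0.71 ± 0.076. At an unadjusted p under 0.05 limma gave 17 lower and 0 higher for DW71177 against DW71374, where 13.7% of all genes were lower and 14.7% higher. It gave 25 lower and 0 higher for OTX015 against DW71374, where 17.8% of all genes were lower and 15.6% higher. These pairs share arrays with the comparisons above.

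Other genes of ribosome production were set beside the family for OTX015 against DMSO. Of all genes 14.5% were lower and 11.2% higher in that comparison. The share lower rose with signal level, as given above, and the lists were not matched to it. Mitochondrial ribosomal proteins, which build the separate ribosome of mitochondria, were lower in 53 of 73 and higher in 0, with a median of -0.33. Among them MRPL3 was at -1.20, MRPL15 at -0.77, MRPS34 at -0.76 and MRPS12 at -0.68. Nucleolar assembly factors were lower in 22 of 26 and higher in 0, with a median of -0.59, among them NIP7 at -1.08, MYBBP1A at -1.07, NHP2 at -1.05 and NOP58 at -0.74. Both lists had a larger median fall than the -0.14 of the cytosolic proteins, a difference that was not tested.

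Chaperones that escort single ribosomal proteins to the assembling particle were lower in 4 of 7 and higher in 0 with OTX015 (median -0.50): LTV1 (-0.86), GRWD1 (-0.80), PDCD2L (-0.59) and BCCIP (-0.50). That list includes RPS19BP1, which is also among the 53. Of 3 RNA polymerase I genes 1 was lower, POLR1F at -0.49. Of 8 other TOP mRNA genes, 3 were lower and 0 higher, with a median of 0.04. The translation initiation factor EIF4B was at -0.40, FAU, which encodes a small subunit protein fused to a ubiquitin-like one, at -0.29, and EEF1G at -0.21. The elongation factors EEF2 (0.05) and EEF1A1 (0.04) were not called. Beside these counts, 14.5% of all genes were lower, and a larger share of the brighter ones.

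Host genes of snoRNAs, many of which also carry a TOP tract, were lower in 4 of 8 and higher in 1: SNHG16 (-1.16), SNHG17 (-0.73), EPB41L4A-AS1 (-0.50) and SNHG8 (-0.26) were lower and SNHG5 (0.33) higher. Of 5 genes that control TOP translation, 2 were lower and 2 higher. EIF4EBP1, a repressor of cap-dependent translation, was at -0.99 and EEF2K, the kinase of EEF2, at -0.60, while EIF4EBP2 was at 0.40 and MTOR at 0.19. For both lists the shares over all genes were 14.5% lower and 11.2% higher.

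**Figure D5:**
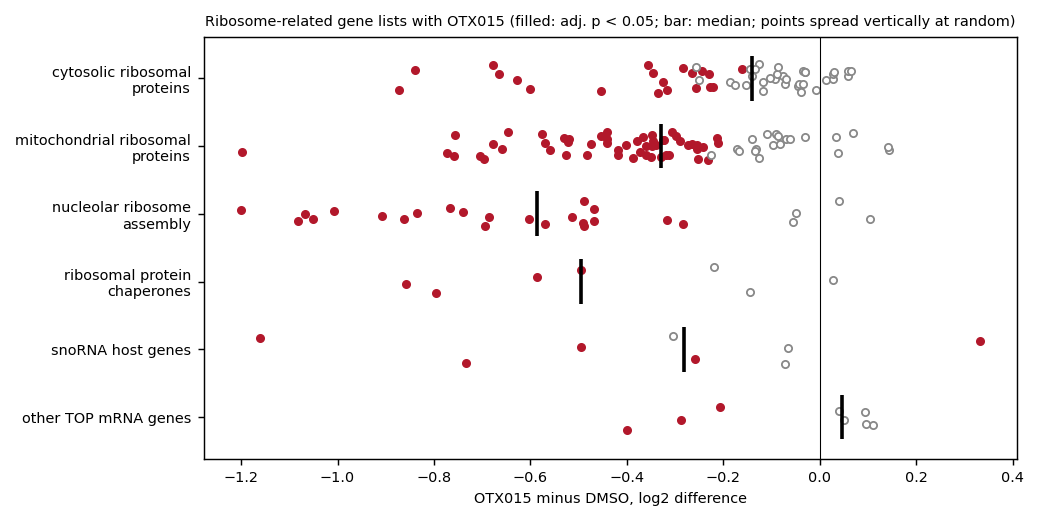
OTX015 minus DMSO log2 differences of single genes (points, filled where the adjusted p was under 0.05) in 6 ribosome-related lists, with the median of each list as a black bar and a random vertical spread for legibility. The cytosolic ribosomal proteins centre at -0.14, the mitochondrial ones at -0.33 and the nucleolar assembly factors at -0.59, and the other TOP mRNA genes at 0.04.

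With DW71177 against DMSO the same lists were lower in 34 and higher in 1 of 73 mitochondrial ribosomal proteins (median -0.17), lower in 19 of 26 nucleolar assembly factors (median -0.46) and lower in 5 of 7 chaperones (median -0.44). Of all genes 9.88% were lower and 9.95% higher with DW71177. With RVX208 the counts lower were 4 of 73 mitochondrial ribosomal proteins, 9 of 26 assembly factors and 1 of 7 chaperones, beside 3.11% of all genes, so that of the mitochondrial list was close to the background. With DW71374 they were 0 in each. The cytosolic ribosomal proteins thus had the median closest to 0 of these 4 lists with OTX015 and DW71177, in 2 comparisons that share the DMSO arrays.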

How the data were processed

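RNA of MV4-11 cells was hybridised to an Affymetrix whole-transcript array in 15 samples, per the labels' protocols. The authors deposited log2 signals for 44629 features; the log2 scale was inferred from the values, and for background correction, normalization, software and build the method is not given in the sources used here. Of the features 15835 named 1 gene in the platform annotation and 28794 none. For 651 genes with several features, the one of highest mean was used, leaving 14812 genes, with no filter on level. Groups and replicate numbers came from the sample titles. Differences were tested in limma 3.58.1 (R 4.3.3, lmFit and eBayes) in 1 fit of 5 group means, two-sided, with Benjamini-Hochberg adjustment over 14812 genes and calls at an adjusted p under 0.05, after a test on simulated data. Alternatives covered features, normalization, scaling, filter, variance model, array weights, samples, the replicate number and left-out arrays.

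Named genes were the 6 largest called falls with OTX015, the called genes of smallest p in other comparisons, the 3 brightest, the 3 least changed, paralog pairs, and up to 4 genes of smallest p per list. Other genes are named for their call, feature or pseudogene, chosen after their values were seen. Members and lists were chosen with earlier results of these data known. Sequences are from RefSeq (GRCh38.p14); 47 genes matched a promoter. Intervals are 95% intervals of the fit, whose precision is limited by the 3 arrays per group. The result of 1 further gene list is not reported here.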

Additional observations from a re-analysis of the deposited data

How the results depend on the processing

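Under the alternatives, every gene that entered a setting was tested again. The tallies of calls kept or lost cover only genes already called. Of 297 recomputed calls with OTX015 against DMSO 266 kept their call, 31 lost it and 0 changed sign. Of 162 with DW71177 against DMSO 144 kept it, 18 lost it and 0 changed sign. The sign could not change in every setting. The level filter, the variance model, the 6 arrays of a pair, all features tested and the replicate block leave the difference itself as it was. Averaging features does so for single-feature genes. RPS14, RPL11 and RPS19 with OTX015 and RPS3 with DW71177 were lost most often, and the cause was not tested except where fewer arrays entered. Quantile normalization called 2 genes higher with OTX015 (RPL12 and RPS27), where 1839 of 14812 genes were higher. It moved the family's median to -0.114, and centring on bright genes moved it to -0.102. The same settings moved the median of DW71177 minus OTX015 to 0.00977 and -0.00113, and that of OTX015 minus DW71374 to -0.0854 and -0.0705. With a trended and robust variance, DW71177 had 17 genes lower and 1 higher (RPL12) than DMSO, where 1632 of 14812 genes were lower and 1683 higher. RVX208 had 5 lower and 2 higher (RPL12 and RPS27), where 704 of 14812 genes were lower and 781 higher. RVX208 had 4 lower after centring, against 496 of 14812 genes. Among genes of mean 5 or more 5 of 45 members were lower, against 737 of 6736 genes. It had 5 lower with array weights, against 617 of 14812 genes, and 1 with all features tested, against 251 of 14812. With only the 6 arrays of the pair, OTX015 against DW71374 had 12 lower, where 1729 of 14812 genes were lower.

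Leaving out 1 array gave 17 to 20 genes lower with OTX015 against DMSO (median -0.146 to -0.127), 9 to 11 with DW71177 (median -0.125 to -0.109), 1 to 3 with RVX208 (median -0.0670 to -0.0403) and 0 with DW71374 (median -0.0183 to -0.00635). It gave 0 for DW71177 against OTX015 (median 0.00934 to 0.0396), 8 to 9 for DW71177 against DW71374 (median -0.111 to -0.0772) and 15 to 17 for OTX015 against DW71374 (median -0.140 to -0.102). Over all 14812 genes, leaving out 1 array gave 1882 to 1995 lower with OTX015 and 1206 to 1366 with DW71177, each against DMSO. Where 2 arrays were left in a group, the spread was pooled over the groups.

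Same-numbered arrays of different groups did not deviate together (30 pairs, r -0.087 to 0.098), so the numbers were not taken to pair the samples. With the replicate number as a block, 19 genes were lower with OTX015, 10 with DW71177 and 4 with RVX208, each against DMSO, and 0 with DW71374. Of all 14812 genes, 2112, 1420, 422 and 0 were lower in the same order.

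Over all genes, the number lower with RVX208 was 461, against 704 with a trended and robust variance, 737 among genes of mean 5 or more, 308 with 6 arrays and 251 with all features tested, and 270 to 305 with 1 array left out. The number higher with DW71177 than with OTX015 was 159, against 427, 510, 0 and 39 in the same order and 56 to 118 with 1 array left out. Genes near background and at the upper end of the scale limit what small changes can be seen.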
